A study of Mus musculus with 26 samples.

Results

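Gjb2, Gja1, Gjb5 and Gjc1 are 4 genes for connexins, the protein subunits of gap junctions, and their RNA and ribosome footprints were followed through heat, hydrogen peroxide (H2O2) and potassium chloride (KCl) stress in the mouse embryonic fibroblast line NIH3T3, an established cell line. They are 4 of 20430 gene symbols in the RNA tables and 4 of 19941 in the footprint tables, and were taken by symbol. Gjb2 was chosen by its measured RNA fold change between 7 h of KCl and control in these same libraries, and the other 3 as connexins to set beside it, so the values of all 4 genes in that group are given as a description without a test. The heat experiment held untreated control cells, cells at 44 °C for 2 h and cells at 42 °C for 8 h, as RNA only. The other experiment held its own untreated control, H2O2 for 2 h or 7 h, and KCl for 2 h or 7 h, as RNA and as ribosome footprints, the short pieces of RNA covered by translating ribosomes. Every group had 2 libraries, and the labels do not say whether these came from separate cultures, so each p-value measures only the spread between these libraries. The concentrations of H2O2 and KCl are not stated in the labels. All cells came from 1 line, with no genetic change named.

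Connexins assemble into hemichannels in the cell membrane, and hemichannels of neighbouring cells dock to form channels that pass ions, metabolites and small messengers. Gja1 encodes Cx43, the main connexin of fibroblasts, and Gjb2 encodes Cx26, a connexin of liver, cochlea and skin whose loss causes hereditary deafness in humans. Gjb5 encodes Cx31.1, known from keratinocytes and placenta, and Gjc1 encodes Cx45, known from smooth muscle and the conduction system of the heart. Connexins turn over within hours, so a cell's set of channels can follow changes in their RNA and synthesis.

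The stretches around the start of 3 of the genes are shown because the RNA of these genes moved differently under the same stresses. Each runs 5′ to 3′ along the gene's own strand, from 250 bases before to 50 bases after the start, from RefSeq on GRCm38.p6; the table held 3 of the 4 genes, without Gjc1. Capitals mark matches to the motifs searched.

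Gjb2, chr14:57104653-57104952, minus strand: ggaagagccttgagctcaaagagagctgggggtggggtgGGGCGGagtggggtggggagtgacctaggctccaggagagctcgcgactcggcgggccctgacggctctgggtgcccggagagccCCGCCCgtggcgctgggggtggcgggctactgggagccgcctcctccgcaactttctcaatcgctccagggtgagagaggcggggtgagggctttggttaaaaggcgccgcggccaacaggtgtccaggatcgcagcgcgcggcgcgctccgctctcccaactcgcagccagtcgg
Gja1, chr10:56377050-56377349, plus strand: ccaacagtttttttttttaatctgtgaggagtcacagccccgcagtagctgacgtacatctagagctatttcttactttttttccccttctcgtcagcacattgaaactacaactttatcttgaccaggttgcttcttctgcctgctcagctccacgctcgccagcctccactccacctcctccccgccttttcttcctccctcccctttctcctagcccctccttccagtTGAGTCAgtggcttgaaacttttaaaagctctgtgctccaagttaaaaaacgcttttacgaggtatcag
Gjb5, chr4:127358115-127358414, minus strand: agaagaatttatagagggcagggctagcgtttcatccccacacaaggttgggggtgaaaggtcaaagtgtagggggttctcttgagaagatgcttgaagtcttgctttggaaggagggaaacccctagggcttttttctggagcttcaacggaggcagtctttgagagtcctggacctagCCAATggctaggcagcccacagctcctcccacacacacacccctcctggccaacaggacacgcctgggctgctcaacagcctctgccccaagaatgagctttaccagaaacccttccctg

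The Gjb2 stretch is 70.0% G or C and holds 2 GC boxes (GGGCGG), 1 on each strand, 211 and 126 bases before the start. The Gja1 stretch is 47.7% G or C and holds an AP-1 match (TGANTCA) 19 bases before the start. The Gjb5 stretch is 54.3% G or C and holds a CCAAT box (CCAAT) 70 bases before the start. Among 32851 promoters of the same length the median was 52.7% G or C, and 35.7% held a GC box, 7.81% an AP-1 match and 37.4% a CCAAT box. A heat shock element (GAANNTTC), an antioxidant response element core (TGACNNNGC) and an NFAT5 core (TGGAAA) were matched in none of the 3 stretches and in 7.86%, 12.4% and 21.4% of all promoters. Both strands were searched, the motifs were chosen with the stretches in view, and a match is a run of letters, not a measured binding site.

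The RNA libraries held between 24441877 and 45244430 counts and the footprint libraries between 1460751 and 5168537, so a footprint value rests on fewer counts than the RNA value of the same gene. All 6 fibroblast markers were at 1 TPM (the deposited level per transcript, corrected for length) or more in every group, with a summed level from 3548 TPM after 7 h of H2O2 to 9331 TPM in the heat control. Summed epithelial markers ranged from 1.67 to 8.67 TPM. Among them Dsp ranged from 0.98 to 7.43 TPM over the libraries, Epcam from 0.25 to 1.12 TPM and Cdh1 from 0.09 to 0.97 TPM. Krt14 and Esrp1 were at 0.33 TPM or less in every library and Krt5 at 0.02 TPM or less outside the 7 h H2O2 group. Summed endothelial markers ranged from 0.34 to 3.18 TPM. Leukocyte markers summed to 5.33 to 44.7 TPM, highest after 7 h of H2O2, where the level came from Cd68, while Tyrobp was at 0 in every library. In these bulk samples fewer cells of a kind and less RNA per cell cannot be told apart.

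Per transcript, Gja1 was the most abundant of the 4 connexins in both controls, and the share held by Gjb2 moved over a wide range between treatments. In the H2O2 and KCl control Gjb2 made up 35.1 and 32.3% of the TPM summed over these 4 genes in the 2 libraries and Gja1 58.3 and 61.8%. After 2 h of H2O2 Gjb2 held 58.0 and 55.6%, and after 7 h of H2O2 60.3 and 59.6%, above Gja1 in all 4 libraries. With 7 h of KCl it held 3.56 and 3.28%, and at 44 °C 3.86 and 5.10% against 22.1 and 19.9% in the heat control. Gjc1 held 6.43 and 5.67% in the H2O2 and KCl control and Gjb5 0.173 and 0.164%. In every library Gjb5 had the lowest share of the 4 genes.

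**Figure D1:**
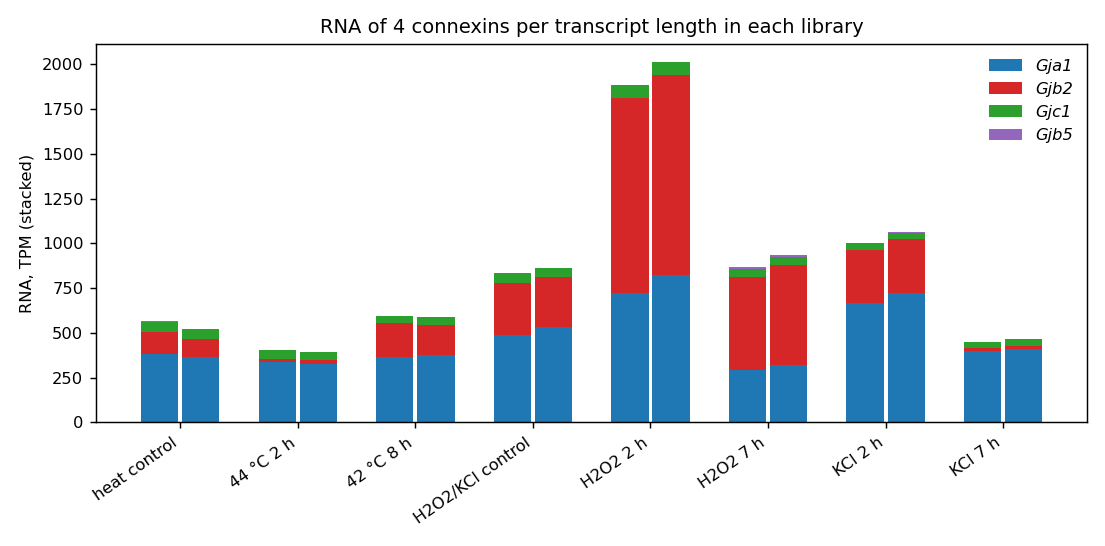
Stacked RNA level in TPM of the 4 connexin genes in each of 16 libraries, with 1 bar per library and groups in the order of the experiments. Their summed level ran from 395 TPM at 44 °C to 2013 TPM after 2 h of H2O2, and the Gjb2 segment is thin at 44 °C and after 7 h of KCl.

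Changes are given below as CPM, counts relative to library size scaled by the trimmed mean of M values, and tested by edgeR's quasi-likelihood test over all genes, with Benjamini-Hochberg adjustment and a threshold of 0.05. Treated groups of an experiment share 1 pair of control libraries, so their comparisons are not independent of each other. The H2O2 and KCl control RNA libraries also entered the choice of Gjb2, so its tests against them are not independent of that choice. At 44 °C the RNA of 4 of the 4 genes fell, where 35.7% of 12747 genes tested fell and 71.0% changed. At 42 °C, where 63.6% of genes changed, Gjb2 rose, Gjb5 and Gjc1 fell, and Gja1 rose on the CPM scale but not on TPM. After 2 h of H2O2 3 of the 4 genes rose, against 27.3% of 13256 genes that rose and 53.9% that changed. At 7 h of H2O2, where 70.5% of genes changed, Gjb2 and Gjb5 rose and Gja1 fell. After 2 h of KCl, where 54.2% changed, Gja1 rose and Gjc1 fell. With backgrounds this high, the number of the 4 genes called says little, and the sizes and directions below carry the description.

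Gjb2 RNA fell steeply at 44 °C and rose at 42 °C. The heat control libraries held 133 and 111 CPM, the 44 °C libraries 15.7 and 20.9 CPM and the 42 °C libraries 229 and 202 CPM. The 3 groups did not overlap, and the order was 42 °C, control, 44 °C. The mean at 44 °C was 6.68-fold lower than the control (log2 fold change -2.74, SE 0.11, edgeR adjusted p = 7.75e-11), and 0.165% of the genes tested had a lower fold change. At 42 °C it was 1.77-fold higher (log2 fold change 0.82, SE 0.0899, edgeR adjusted p = 2.41e-06). Between the 2 heat treatments Gjb2 was 11.8-fold higher at 42 °C (log2 fold change 3.56, SE 0.11, edgeR adjusted p = 2.97e-12), where 75.1% of genes differed. The 2 heat groups differ in both temperature and time, which cannot be told apart here.

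Gjb2 RNA rose under H2O2 and was higher at 2 h than at 7 h. The control libraries held 315 and 296 CPM, the 2 h libraries 1171 and 1194 CPM and the 7 h libraries 591 and 629 CPM. All treated libraries were above both controls. The rise was 3.87-fold at 2 h (log2 fold change 1.95, SE 0.0617, edgeR adjusted p = 1.3e-11) and 1.99-fold at 7 h (log2 fold change 1.00, SE 0.0604, edgeR adjusted p = 2.48e-09). From 2 h to 7 h it fell (log2 fold change -0.96, SE 0.0601, edgeR adjusted p = 3.82e-09), where 73.4% of genes differed.

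Under KCl the 2 times stood far apart. The 2 h libraries held 337 and 338 CPM, both above the controls, but the difference did not pass the test (log2 fold change 0.14, SE 0.0602, edgeR adjusted p = 0.0582), while DESeq2 gave an adjusted p of 0.047. At 2 h Gjb2 was 3.50-fold higher under H2O2 than under KCl (log2 fold change 1.81, SE 0.0616, edgeR adjusted p = 5.01e-11), where 51.3% of genes differed. After 7 h of KCl, the group for which the gene was picked, the libraries held 18.6 and 17.3 CPM, a log2 difference from control of -4.09 (SE 0.0731). The order of Gjb2 RNA in this experiment was H2O2 2 h, H2O2 7 h, KCl 2 h, control, KCl 7 h, with no overlap between neighbours.

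**Figure D2:**
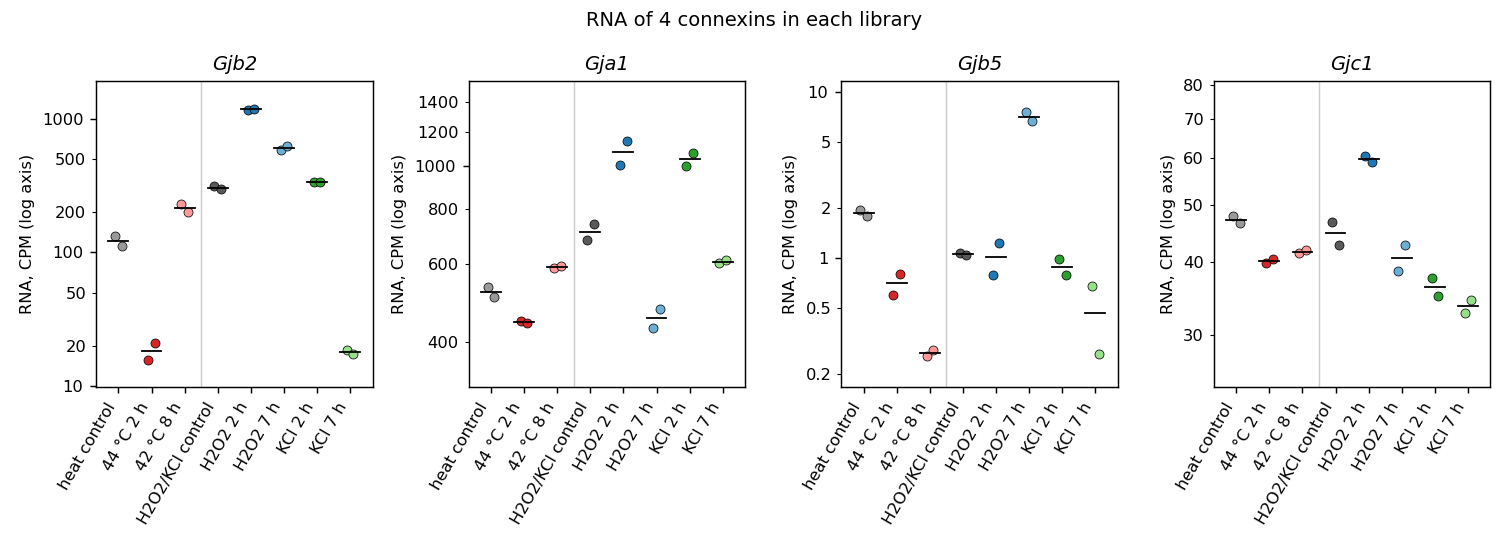
RNA level in CPM on log axes of the 4 connexins, with 1 point per library, 2 libraries per group, a bar at each group's mean, and a grey line between the heat and the H2O2 and KCl experiments. Gjb2 spans from 15.7 CPM at 44 °C to 1194 CPM after 2 h of H2O2, while Gjc1 stays between 32.8 and 60.6 CPM.

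Under H2O2, where Gjb2 RNA rose, its footprints did not pass edgeR's test, though at 7 h the call depended on the tool, and after 2 h of KCl its footprints fell. The control libraries held 580.1 and 473 CPM of footprints and the 2 h H2O2 libraries 233 and 605 CPM, so the groups overlapped although the RNA was 3.87-fold higher. The 7 h H2O2 libraries held 249.7 and 313 CPM. Neither passed the test at 2 h (log2 fold change -0.32, SE 0.34, edgeR adjusted p = 0.69) or at 7 h (log2 fold change -0.90, SE 0.35, edgeR adjusted p = 0.0689). At 7 h both libraries were below both controls, and the lower level was called by DESeq2 (adjusted p = 0.0336) and in edgeR with a replicate block (0.028), with no count filter (0.0183), with the 2 groups alone (0.00413) and without the shallowest footprint library (0.00933), but not by limma on log2(TPM + 1) (adjusted p = 0.252). The low 2 h library was also the shallowest footprint library, and without it the 2 h log2 difference was 0.20. After 2 h of KCl the footprint libraries held 95.3 and 148 CPM, both below the controls. This fall was 4.33-fold (log2 fold change -2.12, SE 0.36, edgeR adjusted p = 0.00446), and its adjusted p was 0.0557 without replicate 1 of the KCl group. The 7 h KCl footprint libraries held 12.0 and 15.9 CPM, from 32 and 56 counts, a log2 difference of -5.22 (SE 0.44) without a test.

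Over the 4 genes, none was called in footprints at 2 h of H2O2, where 1.91% of 10545 genes were; 1 of the 4 had an unadjusted edgeR p under 0.05 and DESeq2 called 0. At 7 h of H2O2 edgeR called 1 of the 4 in footprints, Gjb5, where 27.7% of genes were called, and DESeq2 called 2, Gjb5 and Gjb2. Both tools called Gjb2 alone of the 4 at 2 h of KCl, where 6.86% of genes were called.

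**Figure D3:**
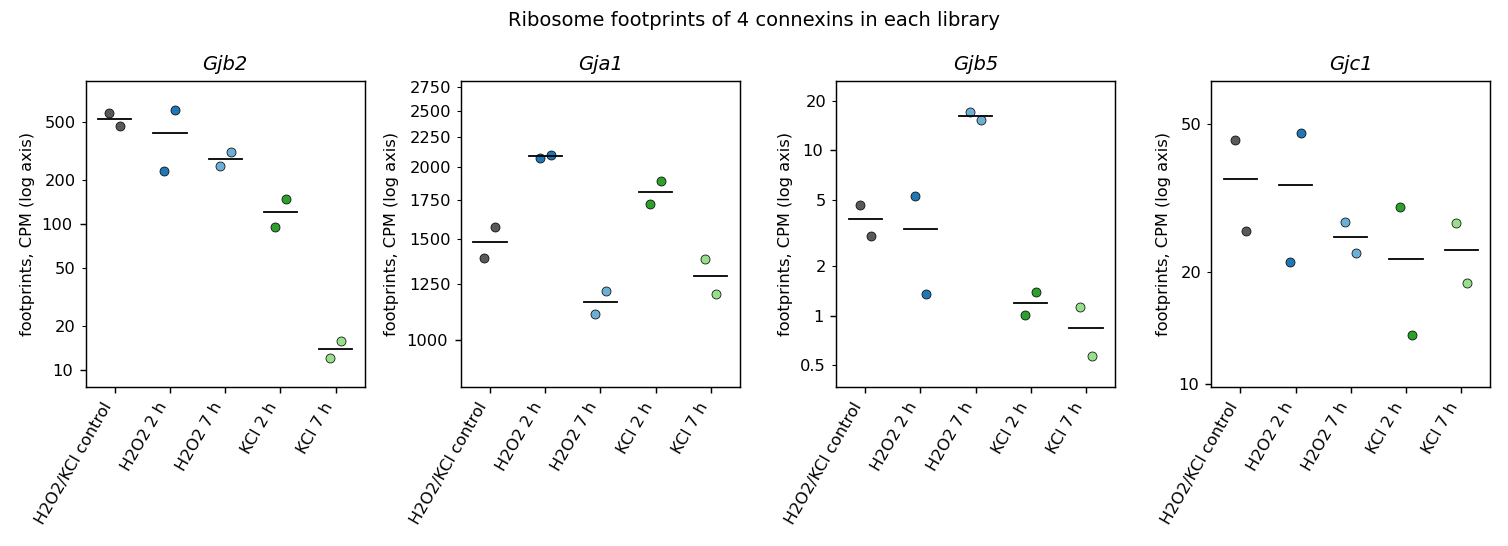
Ribosome footprint level in CPM on log axes of the 4 connexins in the H2O2 and KCl experiment, with 1 point per library, 2 libraries per group and a bar at each group's mean. The Gjb2 libraries after 2 h of H2O2 stand at 233 and 605 CPM, one below and the other above both controls.

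The change in footprints relative to the change in RNA, called translational efficiency here, was tested as the interaction of library kind and treatment in 1 edgeR fit over 10 footprint and 10 RNA libraries. Gjb2 fell in this measure in each of the 3 groups tested. The ratio of mean footprint CPM to mean RNA CPM was 1.72 in the control, 0.354 after 2 h and 0.462 after 7 h of H2O2, and 0.360 after 2 h of KCl. The change was -2.29 (SE 0.39) at 2 h of H2O2 (edgeR adjusted p = 0.00151), -1.90 (SE 0.39) at 7 h (edgeR adjusted p = 0.00601) and -2.27 (SE 0.40) at 2 h of KCl (edgeR adjusted p = 0.00113), on the log2 scale. In those comparisons 7.46%, 4.57% and 9.18% of 10480 genes fell. Gjb2 ranked low among them, with 0.935%, 0.658% and 1.45% of genes lower still. At 7 h of KCl the ratio stood at 0.778, a log2 difference of -1.10 (SE 0.46) given without a test. The 3 tests share the control libraries, whose RNA also entered the choice of Gjb2. The labels name no spike-in, so a change common to all footprints would not be seen.

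For Gja1, Gjb5 and Gjc1 no translational efficiency test passed in these 3 comparisons, where 11.4%, 9.27% and 12.8% of all genes changed; none of them had an unadjusted edgeR p under 0.05, and limma voom with a weight for each kind of library made 0 calls on them as well. The log2 change of Gja1 was -0.14 (SE 0.17), 0.31 (SE 0.17) and -0.27 (SE 0.17) at 2 h of H2O2, 7 h of H2O2 and 2 h of KCl. That of Gjc1 was -0.35 (SE 0.37), -0.38 (SE 0.38) and -0.42 (SE 0.40). Gjb5, with few counts, had wider errors, at -0.73 (SE 0.66), -0.68 (SE 0.48) and -1.45 (SE 0.79). Whether the change of Gjb2 differs from that of the other 3 genes was not tested.

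**Figure D4:**
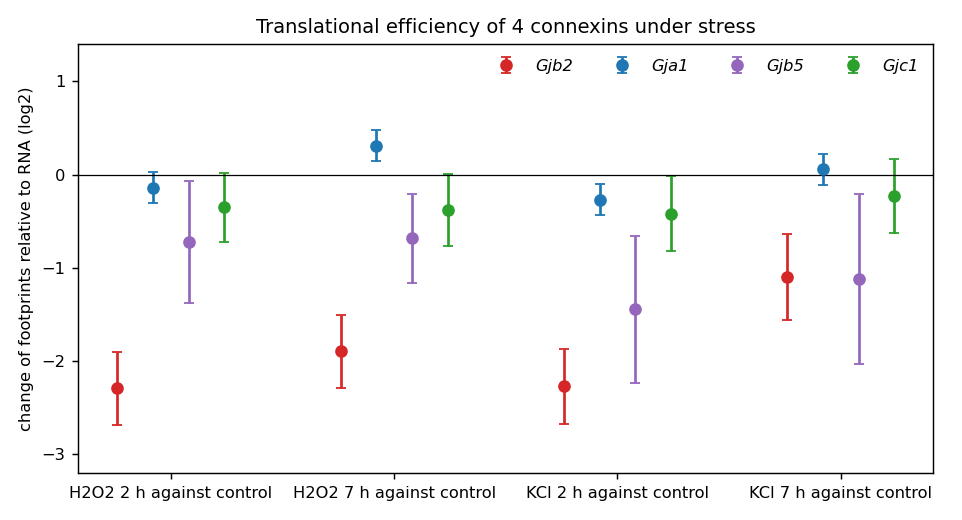
Log2 change in translational efficiency against control, with its standard error, of the 4 connexins in 4 treated groups of the H2O2 and KCl experiment. The Gjb2 points at 2 h of H2O2, 7 h of H2O2 and 2 h of KCl lie at -2.29, -1.90 and -2.27, and the 7 h KCl points are shown as a description.

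Gja1, the most abundant of the 4 in the controls, had a narrower range of RNA levels over the 8 groups than Gjb2. At 44 °C it held 447 and 440.1 CPM against 531 and 505 CPM in the heat control, and fell (log2 fold change -0.22, SE 0.0399, edgeR adjusted p = 0.000161). At 42 °C it held 587 and 595 CPM and was called higher (log2 fold change 0.19, SE 0.0398, edgeR adjusted p = 0.000817). That call rests on the scaling: on log2(TPM + 1) the change was 0.00273 with a limma adjusted p of 0.989, a scale on which the median of all genes with a mean of at least 1 TPM shifted by -0.17 log2 units. Gja1 rose at 2 h of both chemical stresses, to 1006 and 1145 CPM under H2O2 (log2 fold change 0.60, SE 0.0748, edgeR adjusted p = 1.34e-05) and 1001 and 1073 CPM under KCl (log2 fold change 0.55, SE 0.0748, edgeR adjusted p = 2.78e-05), from 682 and 739 CPM. The 2 treatments overlapped, and their difference was 0.05 (SE 0.0746) with an edgeR adjusted p of 0.589.

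Gja1 after 7 h of H2O2 was below the control, at 429.8 and 473 CPM (log2 fold change -0.65, SE 0.0751, edgeR adjusted p = 2.4e-06), the opposite side from 2 h. The fall from 2 h to 7 h itself passed the test (log2 fold change -1.25, SE 0.0759, edgeR adjusted p = 2.6e-09). The 7 h KCl libraries held 602 and 611 CPM, a log2 difference of -0.23 (SE 0.0748) without a test. The order of Gja1 RNA in this experiment was H2O2 2 h, KCl 2 h, control, KCl 7 h, H2O2 7 h, with overlap only between the first pair. Its footprints were 1387 and 1572 CPM in the control, 2074 and 2100.1 CPM and 1109.8 and 1215 CPM after 2 h and 7 h of H2O2, and 1722 and 1888 CPM and 1381 and 1200.1 CPM after 2 h and 7 h of KCl. The footprint means stood in the same order as the RNA means, but none of the 3 tested differences passed, at log2 0.50 (SE 0.17), -0.35 (SE 0.17) and 0.29 (SE 0.17) with edgeR adjusted p-values of 0.169, 0.157 and 0.4.

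Gjb5 was scarce and rose only after 7 h of H2O2 among the comparisons tested. It lies on chromosome 4 at 127354809 to 127358164 (GRCm38.p6). The counting is not stated to use strand, so reads from genes that overlap or adjoin cannot be assigned to 1 of them with certainty. The H2O2 and KCl control held 1.08 and 1.05 CPM, from 52 and 40 counts, and the 7 h H2O2 libraries 7.61 and 6.69 CPM, from 251 and 169 counts. The rise was 6.73-fold (log2 fold change 2.75, SE 0.21, edgeR adjusted p = 3.51e-08), and 7 h also stood above 2 h (log2 fold change 2.80, SE 0.23, edgeR adjusted p = 5.42e-08). Krt5, a keratin of basal keratinocytes, stood at 2.01 and 1.89 TPM in the 7 h H2O2 libraries and 0.02 and 0 TPM in the controls, and Krt14 at 0.33 and 0.16 against 0.09 and 0.04 TPM. The 6 epithelial markers summed to 5.17 to 5.75 TPM there against 2.28 to 2.3 TPM in the controls, with Esrp1 at 0 in both 7 h H2O2 libraries. After 7 h of KCl, where Gjb5 was low, they summed to 8.36 to 8.67 TPM. Of that sum Dsp alone held 7.43 and 7.39 TPM, and Krt5 was at 0 in both libraries. The part of these markers in the rise of Gjb5 was not tested. At 2 h the values were 0.793 and 1.24 CPM under H2O2 and 0.988 and 0.794 CPM under KCl, with edgeR adjusted p-values of 0.89 and 0.512. The 7 h KCl libraries held 0.679 and 0.265 CPM, a log2 difference of -1.11 (SE 0.35) that became -1.99 without replicate 1.

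Gjb5 RNA fell in both heat treatments, from 1.95 and 1.79 CPM to 0.603 and 0.811 CPM at 44 °C (log2 fold change -1.41, SE 0.24, edgeR adjusted p = 0.000106) and 0.257 and 0.282 CPM at 42 °C (log2 fold change -2.79, SE 0.30, edgeR adjusted p = 1.86e-06). The 42 °C libraries were below the 44 °C libraries (log2 fold change -1.38, SE 0.36, edgeR adjusted p = 0.00282), the reverse of Gjb2. This Gjb5 difference rests on few counts, 9 and 8 at 42 °C against 22 and 28 at 44 °C. Gjb5 footprints rose after 7 h of H2O2, from 4.65 and 3.02 to 17.1 and 15.3 CPM, or 19 and 11 to 60 and 53 counts (log2 fold change 2.06, SE 0.46, edgeR adjusted p = 0.00461). In the other groups they stood at 5.34 and 1.36 CPM after 2 h of H2O2, 1.01 and 1.39 CPM after 2 h of KCl and 1.13 and 0.567 CPM after 7 h of KCl. The call after 7 h of H2O2 was lost without replicate 1 of the 7 h group, with an adjusted p of 0.0552, and on log2(TPM + 0.1), with a limma adjusted p of 0.0537.

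Gjc1 changed by small amounts. It fell at 44 °C to 39.8 and 40.5 CPM (log2 fold change -0.23, SE 0.0509, edgeR adjusted p = 0.000903) and at 42 °C to 41.3 and 41.8 CPM (log2 fold change -0.18, SE 0.0513, edgeR adjusted p = 0.00644), from 47.8 and 46.5 CPM. Without replicate 1 of the heat control the 42 °C call was lost, with an adjusted p of 0.0574. The 2 heat groups did not differ by the test (log2 fold change 0.05, SE 0.0524, edgeR adjusted p = 0.391), but on log2(TPM + 1) 42 °C was lower, by 0.20. Gjc1 rose after 2 h of H2O2, to 60.6 and 59.3 CPM from 46.7 and 42.7 CPM (log2 fold change 0.42, SE 0.0713, edgeR adjusted p = 0.000204), and fell after 2 h of KCl, to 37.5 and 34.997 CPM (log2 fold change -0.30, SE 0.0743, edgeR adjusted p = 0.00319). The difference between those treatments passed the test (log2 fold change 0.73, SE 0.0743, edgeR adjusted p = 2.06e-06).

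Gjc1 held 38.5 and 42.7 CPM after 7 h of H2O2, a fall from 2 h (log2 fold change -0.56, SE 0.0730, edgeR adjusted p = 7.93e-06) that passed the test. Against control it did not pass (log2 fold change -0.14, SE 0.0730, edgeR adjusted p = 0.0963), nor was it called by DESeq2. With relative log expression (RLE) scaling in edgeR the adjusted p was 0.0439. The 7 h KCl libraries held 32.8 and 34.4 CPM, a log2 difference of -0.41 (SE 0.0746) without a test. By group mean its footprints were lowest after 2 h of KCl, at 29.9 and 13.6 CPM, and highest in the control, at 45.2 and 25.8 CPM. The 2 h H2O2 libraries stood apart, at 21.3 and 47.1 CPM. Neighbouring groups overlapped throughout, and no footprint test passed. The log2 differences were 0.02 (SE 0.39), -0.52 (SE 0.40) and -0.71 (SE 0.41) for 2 h of H2O2, 7 h of H2O2 and 2 h of KCl.

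Of 16 other gap junction and pannexin genes followed, 4 were tested in the H2O2 and KCl experiment and 3 in the heat experiment; the rest had too few counts. Panx1, a channel protein that releases ATP, rose at 7 h of H2O2 from 11.1 and 9.09 to 39.1 and 41.1 CPM (log2 fold change 1.98, SE 0.0988, edgeR adjusted p = 2.86e-10), and its footprints rose too (log2 fold change 1.99, SE 0.35, edgeR adjusted p = 0.000999). Its RNA fell after 2 h of KCl, to 7.74 and 6.63 CPM (log2 fold change -0.50, SE 0.12, edgeR adjusted p = 0.00253), and at 44 °C, from 11.7 and 11.3 to 8.11 and 8.31 CPM (log2 fold change -0.49, SE 0.0803, edgeR adjusted p = 8.02e-05). At 42 °C it held 9.64 and 9.59 CPM and was called lower by edgeR (log2 fold change -0.26, SE 0.0799, edgeR adjusted p = 0.0109) but not by DESeq2 (adjusted p = 0.122), nor without replicate 1 of either group (edgeR adjusted p = 0.052 and 0.0799). Gja4, a connexin of vascular endothelium, rose at 2 h of H2O2 (log2 fold change 2.19, SE 0.28, edgeR adjusted p = 1.91e-05) and of KCl (log2 fold change 1.68, SE 0.32, edgeR adjusted p = 0.000484), from 16 and 11 counts to 47 and 47 under H2O2, and 29 and 21 under KCl. Gja6 passed the count filter only in the heat experiment and only through its 42 °C libraries, with 14 and 11 counts.

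Gjb2 lies on chromosome 14 at 57098602 to 57104702, between Gja3 and Gjb6, which are 40571 and 18598 bases away. Gjb6, which pairs with Gjb2 in the cochlea, had 12 and 8 counts in the control, 17 and 28 after 2 h and 81 and 74 after 7 h of H2O2. It rose at 2 h (log2 fold change 1.56, SE 0.39, edgeR adjusted p = 0.00382) and at 7 h (log2 fold change 3.51, SE 0.31, edgeR adjusted p = 1.36e-07), while Gjb2 was higher at 2 h than at 7 h. The 2 h call of Gjb6 was lost without replicate 2 of that group, with an adjusted p of 0.0677. Gja3, a lens connexin, had 6 and 2 counts in the control, 14 and 14 after 2 h and 25 and 12 after 7 h of H2O2. At 7 h it was called higher (log2 fold change 2.72, SE 0.51, edgeR adjusted p = 0.000268). At 2 h its log2 difference from control was 1.75 to 2.93 with 1 library left out at a time. After 7 h of KCl, where Gjb2 was low, Gjb6 had 0 and 1 counts and Gja3 3 and 6.

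Proteins that anchor, traffic or modify connexins were followed through a list of 22 genes, of which 21 were tested. At 44 °C 8 of the 21 rose and 9 fell, where 35.4% of all genes rose and 35.7% fell, and at 42 °C 12 rose and 4 fell, against 31.7% and 31.9%. After 2 h of H2O2 3 rose and 4 fell, against 27.3% and 26.5% of all genes, and after 7 h 8 rose and 9 fell, against 39.4% and 31.1%. With 2 h of KCl 14 rose and 4 fell, against 27.2% and 27.0%. Cdh2, the cadherin of fibroblast adhesion, fell at 44 °C (log2 fold change -0.82, SE 0.0444, edgeR adjusted p = 1.3e-09) and after 7 h of H2O2 (log2 fold change -0.75, SE 0.0656, edgeR adjusted p = 1.39e-07), and rose at 42 °C (log2 fold change 0.36, SE 0.0429, edgeR adjusted p = 4.94e-06). Cav1, the caveolar protein, fell at 44 °C (log2 fold change -0.76, SE 0.0415, edgeR adjusted p = 1.32e-09) and after 7 h of H2O2 (log2 fold change -0.87, SE 0.0624, edgeR adjusted p = 1.55e-08). Tjp1, the scaffold that binds the tail of Cx43, rose after 2 h of KCl (log2 fold change 0.44, SE 0.0763, edgeR adjusted p = 0.000229), as did Csnk1d, a casein kinase (log2 fold change 0.44, SE 0.0552, edgeR adjusted p = 1.32e-05). At 42 °C the counts above are on the CPM scale. Tjp1, called higher there, was not called on log2(TPM + 1) (log2 difference 0.13, limma adjusted p = 0.142). Nedd4, a ubiquitin ligase of Cx43, fell after 7 h of H2O2 (log2 fold change -0.67, SE 0.0655, edgeR adjusted p = 4.57e-07). In translational efficiency 4 of the 21 fell and 0 rose at 2 h of H2O2 and likewise at 2 h of KCl. Of all genes 7.46% and 9.18% fell there. At 7 h of H2O2, where Gjb2 also fell, 0 of the 21 changed, against 9.27% of all genes. Src, a kinase that phosphorylates Cx43, was 1 of those that fell at 2 h of H2O2 (log2 fold change -0.87, SE 0.17, edgeR adjusted p = 0.00392). It also fell at 2 h of KCl (log2 fold change -1.37, SE 0.18, edgeR adjusted p = 9.38e-05).

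The pattern of Gjb2 over the 8 RNA groups was compared with that of every gene with a mean log2 CPM of at least 1, 10806 genes in all, each centred within its experiment. The nearest by root mean square difference were Ccn4, a secreted matrix protein (0.493 log2 units, Pearson r = 0.97 over 8 groups), the early growth response factors Egr3 (0.549, r = 0.98) and Egr1 (0.910), the phosphatase Dusp5 (0.933) and the DNA helicase Fbh1 (0.992). The range of Gjb2 was 6.04 log2 units, with its low end at 7 h of KCl, the group for which the gene was picked and which also enters these likeness values. Gja1 ranged over 1.25 log2 units, with Tbc1d9, Dpy19l3 and Tmtc4 nearest at 0.113, 0.123 and 0.123 log2 units. Gjc1 ranged over 0.83 log2 units, with Zfp444, Mesdc2 and Rrad nearest at 0.0776, 0.0806 and 0.0968. Gjb5 was below the level needed. These are descriptions over 8 groups that share control libraries.

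The deposited tables also score readthrough, in which a polymerase fails to stop at a gene's end, for 6399 pairs of neighbouring genes in each of the 16 RNA libraries. Gjc1 was the receiving gene of 1 pair, behind Eftud2, and its read-in estimate, a ratio whose formula is not stated in the sources used here, was above 0 in 5 of 16 libraries, with the highest value of 0.0144 after 2 h of KCl. No library had a read-in call for it; over all pairs and libraries 1.38% of values were called, 1415 in all, with finite estimates of 0.00060 at the lowest and 0.272 at the median. Gjb2, Gja1 and Gjc1 were the upstream gene of 1 pair each, and no read-in call was made in any of these 3 pairs. Transcription downstream of the gene was called for Gjb2 in 4 of 16 libraries, both after 2 h of H2O2 and 1 each after 7 h of H2O2 and at 42 °C, where 28.5% of all pair and library values were called. The estimate for its neighbour Gja3 was 0 in all 16 libraries. The same call was made for Gja1, upstream of Hsf2, in 5 libraries and for Gjc1, upstream of Ccdc43, in 6, of which 3 were control libraries, with estimates of at most 0.00365 and 0.00607. Gjb5 was in no pair.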

How the data were processed

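RNA and ribosome footprints were measured in NIH3T3 cells. The authors deposited expected counts per gene, held as whole numbers, and TPM per gene. STAR, RSEM, Bowtie and the mouse build mm10 are named in the submitters' processing notes; no source used here gives their versions or what each did. The authors also deposited, per pair of neighbouring genes and library, a read-in ratio and calls of readthrough, by formulas that no source used here gives.

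Expected counts were scaled by the trimmed mean of M values and tested with edgeR 4.0.16 (quasi-likelihood, filterByExpr, Benjamini-Hochberg over all genes tested), with 1 fit for the heat RNA, 1 for the H2O2 and KCl RNA, 1 for footprints and 1 for translational efficiency, and all groups of an experiment in its fit. limma 3.58.1 on log2(TPM + 1) or log2(TPM + 0.1) and DESeq2 1.42.0, under R 4.3.3, served as alternatives. The edgeR fits were also run on simulated data, where far fewer genes changed than were called in these RNA comparisons. No outcome of those runs is given here. Each standard error was computed from the log2 fold change and its F value. Levels of different genes were compared only in TPM.

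The 4 connexins, the gene lists and the tests were chosen with earlier results of these data known. The genes named are these 4 in every comparison, the gap junction and pannexin genes that passed the count filter in an RNA fit, 6 partners, the 5 genes nearest to Gjb2 and 3 nearest to Gja1 and Gjc1, and every pair with 1 of the 4. A few genes of the gap junction list are not reported here, so that list is given gene by gene, without counts or a median. The 12 columns of the footprint tables that match no sample were not used. Replicate numbers do not pair the libraries by the labels.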

Additional observations from a re-analysis of the deposited data

Results flagged for a closer look

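Differences between times of the same treatment were listed for each of the 4 connexins. Between 2 h and 7 h of H2O2 the difference was tested directly with edgeR and passed for Gjb2 (log2 -0.96, adjusted p = 3.82e-09), Gja1 (-1.25, adjusted p = 2.6e-09), Gjb5 (2.80, adjusted p = 5.42e-08) and Gjc1 (-0.56, adjusted p = 7.93e-06), each as 7 h minus 2 h, where 73.4% of genes differed. Only Gjb5 of the 4 was higher at 7 h.

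Under KCl, both libraries of Gjb2 lay above both controls at 2 h (log2 difference 0.14) and below them at 7 h (-4.09). The same held for Gja1, at 0.55 and -0.23. At 2 h the rise of Gja1 passed edgeR's test (adjusted p = 2.78e-05), and the difference of Gjb2 did not (adjusted p = 0.0582). The difference between the 2 times of KCl was not tested, because Gjb2 was picked from the 7 h group.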

How the results depend on the processing

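Of 68 results on the 4 connexins, 44 were kept under all alternatives run, out of 840 values in all. A tested result was kept if it held its direction and its side of the threshold. The results at 7 h of KCl have no test. They were kept if they held their direction and moved by less than the spread between replicates. Every translational efficiency call of Gjb2 held under each one, with leave-one-out ranges of -3.17 to -1.79 at 2 h of H2O2, -2.08 to -1.74 at 7 h and -2.62 to -1.98 at 2 h of KCl. The cause was not tested for any change below. Footprint depth and 2 libraries a group limit the precision of the footprint results.

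On the TPM scale the rise of Gja1 at 42 °C shrank to 0.0027 on both pseudocounts and with the filter on low TPM, and Gjc1 at 42 °C against 44 °C turned to -0.20 with and without the filter and -0.20 with a pseudocount of 0.1. On that scale, with the filter, the median of all genes moved to -0.17 at 42 °C, -0.21 at 42 °C against 44 °C and -0.11 at 2 h of KCl. Gjc1 after 7 h of H2O2 passed the test with RLE scaling in edgeR (-0.18), on TPM (-0.19, -0.20) and with the 2 groups alone (-0.20). Gjb2 after 2 h of KCl passed with DESeq2 (0.14). Gjb2 footprints after 7 h of H2O2 passed with no count filter (-0.94), with DESeq2 (-0.90), with the 2 groups alone (-0.91) and without the shallowest footprint library (-0.91), an alternative chosen after seeing the data. Gjb5 footprints after 7 h of H2O2 were 2.20 on log2(TPM + 0.1), no longer past the threshold. Gjc1 footprints after 2 h of H2O2, 0.02 in edgeR, turned to -0.0060 with DESeq2 and -0.17 or -0.17 on TPM. Without a test, Gja1 after 7 h of KCl moved to -0.327 on TPM, and Gjb5 footprints there to -1.53 on log2(TPM + 1).

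The labels tie the replicate numbers to no shared batch. Per gene, the difference between a group's replicates was taken in order of replicate number. These differences, not the levels themselves, were correlated across genes between groups of the same experiment. The correlations were -0.053 to 0.054 in the H2O2 and KCl RNA and -0.025 to 0.117 in the heat RNA. In footprints they were -0.384 to 0.417. With a replicate block Gjb2 footprints after 7 h of H2O2 were -0.96 (adjusted p = 0.028), and the block changed no other call on the 4 genes.

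Leaving out 1 library at a time gave these log2 ranges where a value changed side or call. In RNA, Gjc1 ranged over -0.20 to -0.16 at 42 °C and -0.216 to -0.0787 after 7 h of H2O2, Gjb5 over -0.42 to 0.16 after 2 h of H2O2, -1.99 to -0.64 after 7 h of KCl and -0.17 to 0.47 between H2O2 and KCl at 2 h, and Gja1 over -0.0444 to 0.135 in that last comparison. In footprints after 2 h of H2O2, Gjb2 ranged over -1.19 to 0.20, Gjb5 over -1.49 to 0.45 and Gjc1 over -0.75 to 0.48; Gjb5 ranged over 1.79 to 2.36 after 7 h of H2O2 and Gjb2 over -2.47 to -1.83 after 2 h of KCl. In translational efficiency, Gjb5 ranged over -1.497 to 0.47 at 2 h of H2O2 and -1.62 to -0.25 at 7 h of KCl, Gjc1 over -1.21 to 0.13, -0.699 to 0.0898, -1.10 to 0.0509 and -0.56 to 0.24 in the 4 groups, and Gja1 over -0.0395 to 0.163 at 7 h of KCl.

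The number of genes called moved by over 1.5 times only in footprints and translational efficiency. In footprints it was 201 after 2 h of H2O2, 315 with no count filter, 34 to 45 on TPM, 27 with the 2 groups alone and 37 to 145 with 1 library left out. It was 2925 after 7 h of H2O2 and 1681 to 2245 with 1 left out. After 2 h of KCl it was 723, 266 to 455 on TPM, 463 with the 2 groups alone and 211 to 421 with 1 left out, and after 7 h of KCl 2148, 1245 or 1279 on TPM and 996 to 1381 with 1 left out. In translational efficiency the counts of 1199, 971, 1337 and 584 became 659, 642, 730 and 221 with limma voom weights, and 584 to 1878, 460 to 911, 779 to 1311 and 235 to 531 with 1 left out. By Pearson correlation 1 of the 5 genes nearest to Gjb2, 0 of 3 for Gja1 and 1 of 3 for Gjc1 were the same.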
